A study of Mus musculus with 4 samples.

Results

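The core circadian clock genes were followed in mouse lung tumours. They were taken by symbol from the count files, and all 10 were found among the 24391 genes listed for each sample. The set holds the activators Arntl, Clock and Npas2, the repressors Per1, Per2, Per3, Cry1 and Cry2, and the REV-ERB genes Nr1d1 and Nr1d2. The 4 samples came from tumours driven by K-RasLSL-G12D, a mutant K-Ras allele that stays silent until Cre recombinase removes a stop cassette. Of these, 2 were labelled K-Ras and 2 were labelled K-Ras Mll4-/-, from the genotype K-RasLSL-G12D;Mll4fl/fl, in which floxed Mll4 alleles are also recombined. Both groups thus carried the activated K-Ras allele and had no tumour-free control. Mll4, now named Kmt2d, encodes a histone methyltransferase that acts mainly at enhancers. The driver of Cre, the age of the mice and the hour of collection are not given in the sources used here, nor is it said whether replicates came from separate mice. The p-values therefore measure only the spread between these samples, which may be technical.

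In mammalian cells the clock is a transcriptional feedback loop. CLOCK or its paralog NPAS2 pairs with ARNTL (BMAL1) and activates genes that carry E-boxes, among them the Per, Cry and Nr1d genes, whose products then repress their own transcription. PER and CRY proteins act on the activator complex itself, while the REV-ERB proteins encoded by Nr1d1 and Nr1d2 repress Arntl through sites they share with the activating ROR receptors. In a rhythmic tissue such as the lung, transcripts of Arntl and of Per, Nr1d and Dbp therefore peak at opposite times of day.

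Cells bearing the leukocyte antigen CD45 had been depleted before RNA was taken. Between 26683033 and 36677987 reads per sample were assigned to genes, and the ranges of both groups overlapped. Reads in genes made up 39.5% and 39.9% of all reads tallied for K-Ras Mll4-/- against 34.4% and 35.5% for K-Ras, a difference whose part in the clock values was not tested. All 10 clock genes passed the filter on low counts, which left 16001 genes, and each had at least 80 reads in every sample. Kmt2d itself was at 395 and 526 CPM (reads scaled to a common library size) in K-Ras and 367 and 317 CPM in K-Ras Mll4-/- samples. Counts per whole gene do not show the loss of single exons, so the deletion is taken from the labels. The alveolar type 2 markers, which define the surfactant cells from which such tumours often arise, were abundant in all 4 samples, with sums between 15270 and 25470 CPM.

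Promoter sequences are shown for 4 clock genes: for each limb, the member with the largest fitted difference between groups (Cry2, Nr1d1 and Arntl), and Per3, which held the only D-box match. They run over the 250 bases before the RefSeq transcription start in the direction of the gene, from a table with the build GRCm38.p6, which is not the build named in the submitters' processing notes (mm9). The Cry2 window is chr2:92434070-92434319, minus strand. That of Per3 is chr4:151044666-151044915, minus strand. For Nr1d1 it is chr11:98775378-98775627, minus strand, and for Arntl chr7:113207215-113207464, plus strand. None of these 4 windows overlaps an annotated exon. Capitals mark matches, on either strand, to the motifs searched.
Cry2: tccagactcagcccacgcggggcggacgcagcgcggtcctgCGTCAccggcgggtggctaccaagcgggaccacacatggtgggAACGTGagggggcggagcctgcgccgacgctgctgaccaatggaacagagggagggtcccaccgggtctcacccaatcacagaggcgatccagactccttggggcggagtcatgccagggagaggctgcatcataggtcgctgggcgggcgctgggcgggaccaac
Per3: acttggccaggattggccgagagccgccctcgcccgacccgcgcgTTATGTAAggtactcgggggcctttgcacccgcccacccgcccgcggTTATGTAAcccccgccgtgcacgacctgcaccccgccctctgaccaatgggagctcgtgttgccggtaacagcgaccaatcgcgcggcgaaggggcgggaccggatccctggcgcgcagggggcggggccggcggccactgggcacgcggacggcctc
Nr1d1: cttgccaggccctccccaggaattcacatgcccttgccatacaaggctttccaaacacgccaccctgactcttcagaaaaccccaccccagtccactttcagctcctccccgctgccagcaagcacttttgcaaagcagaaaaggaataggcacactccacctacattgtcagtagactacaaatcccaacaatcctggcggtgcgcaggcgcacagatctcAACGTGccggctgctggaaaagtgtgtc
Arntl: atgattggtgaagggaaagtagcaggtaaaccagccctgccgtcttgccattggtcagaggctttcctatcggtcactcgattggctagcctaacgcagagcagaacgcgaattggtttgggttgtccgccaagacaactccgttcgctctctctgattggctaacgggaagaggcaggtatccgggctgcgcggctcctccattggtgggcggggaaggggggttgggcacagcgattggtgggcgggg

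The motifs were the E-box CACGTG, its variant CACGTT (the E-prime box, AACGTG on the other strand), the D-box TTATGTAA, bound by DBP, TEF, HLF and NFIL3, its form TTACGTAA, the core AGGTCA of the ROR and REV-ERB site, and the cyclic AMP element TGACGTCA with its shorter core TGACG. The longer cyclic AMP element contains the shorter one. Per3 carried the D-box at 2 places, starting 205 and 158 bases before its start, and 0.82% of all 32851 promoter windows of the same 250 bases held that motif. Cry2 and Nr1d1 each carried 1 E-prime box, on the other strand, starting 166 and 28 bases before the start. That motif was present in 3.85% of all windows. Cry2 also had 1 TGACG match, a motif present in 17.77% of windows. The Arntl window held none of the 7 motifs, which says only that these letters are not in those 250 bases. Over all 13 windows available for 9 of the 10 members, CACGTG was found in those of Per1 and Cry1 and in 6.02% of all windows. AGGTCA was found in windows of Per1, Clock and Nr1d2 and in 14.02% of all windows. CACGTT was also found for Cry1, and TGACG for Per1 and Cry1, while neither TTACGTAA (0.11% of all windows) nor TGACGTCA (1.55%) matched any of the 13.

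No activator was called by the edgeR quasi-likelihood test at an adjusted p under 0.05, and the 95% intervals of all 3 included 0. Arntl, whose product is the indispensable partner in the activator complex, was at 27.9 and 24.9 CPM in K-Ras Mll4-/- samples and at 25.2 and 15.2 CPM in K-Ras samples. Only K-Ras replicate 2 stood apart, and the groups overlapped. The log2 fold change, K-Ras Mll4-/- minus K-Ras, was 0.38 (SE 0.28, 95% interval -0.37 to 1.14, edgeR quasi-likelihood adjusted p = 0.467). Clock, which encodes the partner with acetyltransferase activity, was the steadiest of the 3, at 160 and 178 CPM against 157 and 142 CPM. Both K-Ras Mll4-/- samples were above both K-Ras samples, by a margin that vanished with scaling by total counts or by the upper quartile. Its log2 fold change was 0.17 (SE 0.14, interval -0.19 to 0.54, adjusted p = 0.499). Npas2, the paralog of Clock, was the least abundant member, at 6.51 and 2.92 CPM in K-Ras Mll4-/- and 2.62 and 5.20 CPM in K-Ras samples. The K-Ras samples spanned a range inside which 1 of the others fell, so the groups overlapped. The Npas2 log2 fold change was 0.26 (SE 0.56, interval -1.23 to 1.76), which leaves large differences in either direction possible. Its sign turned, to -0.42 without K-Ras Mll4-/- replicate 1 and to -0.14 without K-Ras replicate 1.

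The PER and CRY repressors were lower in K-Ras Mll4-/- tumours by fitted value, from 1.29-fold for Cry1 to 2.28-fold for Cry2, but none was called by the edgeR quasi-likelihood test at an adjusted p under 0.05. Cry2, a light-independent cryptochrome that represses the activator complex, was at 28.0 and 27.1 CPM in K-Ras Mll4-/- samples and at 45.0 and 80.9 CPM in K-Ras samples. The K-Ras Mll4-/- replicates were nearly equal and the groups did not overlap. Its log2 fold change was -1.19 (SE 0.31, interval -2.02 to -0.37), with an unadjusted p of 0.0148 and an adjusted p of 0.176. Cry2 shares 295 exon bases, 4.7% of its total, with D930015M05Rik on the opposite strand. The strand setting of the counting is not given in the sources used here, so reads in that stretch cannot be told apart. Its paralog Cry1, the stronger repressor of the pair in the classical clock, was at 17.2 and 15.0 CPM against 21.7 and 19.8 CPM. These groups did not overlap either, at a log2 fold change of -0.36 (SE 0.17, adjusted p = 0.278).

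Per2, a scaffold of the repressor complex, was at 46.7 and 54.5 CPM in K-Ras Mll4-/- samples and at 64.6 and 145 CPM in K-Ras samples. The groups were apart, yet K-Ras replicate 2 lay farther from its own replicate than that replicate lay from either K-Ras Mll4-/- sample. Its log2 fold change was -1.05 (SE 0.41, interval -2.15 to 0.05, adjusted p = 0.242). Per3, which is dispensable for rhythm in most tissues, was at 45.5 and 52.1 CPM against 65.7 and 94.9 CPM. Its groups did not overlap, and its log2 fold change was -0.72 (SE 0.22, unadjusted p = 0.0257, adjusted p = 0.190). Per1, which besides its E-box control is induced within minutes by cyclic AMP and glucocorticoid signals, was at 130 and 80.9 CPM in K-Ras Mll4-/- and 119 and 245 CPM in K-Ras samples. K-Ras Mll4-/- replicate 1 was above K-Ras replicate 1, so the groups overlapped, at a log2 fold change of -0.79 (SE 0.43, adjusted p = 0.347). With offsets for GC content and transcript length the Per1 value shrank to -0.52. The longest Per1 transcript has 59.4% GC, the highest of the 10 members. The other PER and CRY genes also moved towards 0 with these offsets. Per2 was then at -0.84, Per3 at -0.56, Cry1 at -0.30 and Cry2 at -1.02, and the median of this limb was -0.56.

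Nr1d1 and Nr1d2, the REV-ERB genes, were both without a call. Nr1d1 was at 70.6 and 75.6 CPM in K-Ras Mll4-/- samples and at 94.3 and 94.6 CPM in K-Ras samples. Its replicates agreed closely and the groups did not overlap. The log2 fold change was small, at -0.37 (SE 0.12, interval -0.68 to -0.06, unadjusted p = 0.0279, adjusted p = 0.195), and it moved to -0.23 with the GC and length offsets. Nr1d1 shares 263 exon bases, 8.5% of its total, with the 3' part of Thra on the opposite strand, so some of its reads are uncertain. Nr1d2 was at 152 and 159 CPM against 136 and 177 CPM, with both K-Ras Mll4-/- samples between the K-Ras samples. Its log2 fold change was -0.01 (SE 0.18, interval -0.48 to 0.45).

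**Figure D1:**
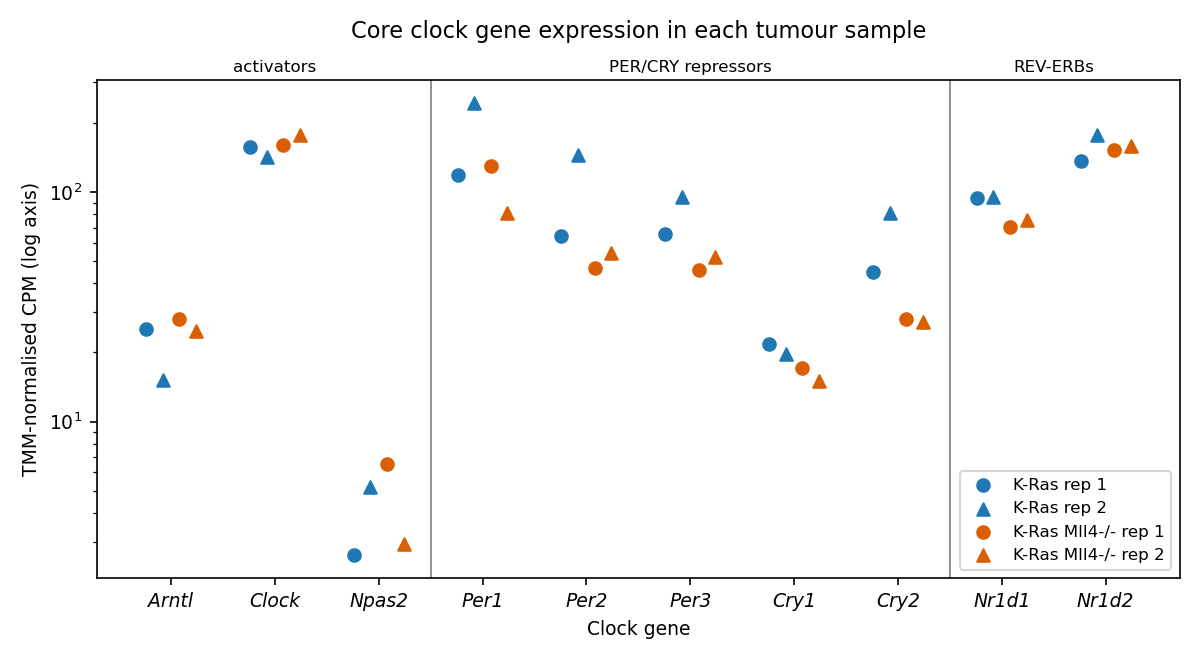
TMM-normalised CPM (log axis) of the 10 clock genes, with 1 point per sample: blue for K-Ras, orange for K-Ras Mll4-/-, circles for replicate 1 and triangles for replicate 2. For Per2, Per3, Cry1, Cry2 and Nr1d1 both orange points lie below both blue points, and K-Ras replicate 2 is the highest sample for Per1, Per2, Per3 and Cry2.

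Across the 3 limbs, 0 of the 10 members were called in either direction. Over all 16001 tested genes the same test called 6 higher (0.0375%) and 0 lower (0%). At an unadjusted p under 0.05, 3 members were lower (Cry2, Per3 and Nr1d1) and 0 were higher, where 10.4% of all tested genes were lower and 11.4% higher. Both K-Ras Mll4-/- samples were below both K-Ras samples for 5 members and above them for 1, Clock. Over all tested genes those patterns were held by 28.5% and 29.9%. The 5 were Per2, Per3, Cry1, Cry2 and Nr1d1 under each of 4 scalings. The median log2 fold change was -0.79 over the PER and CRY genes and 0.26 over the activators, beside -0.01 over all tested genes. The activator median was 0.09 without K-Ras replicate 2 and 0.46 without K-Ras Mll4-/- replicate 2, and 0.17 by limma-voom. With the GC and length offsets it moved away from 0, to 0.39. The PER and CRY genes were lower by fitted value, 5 of 5, in each of the 17 fits run, including those that left out a sample. All of these fits reuse the same samples, so their agreement is not repeated evidence. By the edgeR quasi-likelihood fit, 8190 of the 16001 tested genes were lower. For the activators, 3 of 3 were higher by fitted value in 15 of the fits and 2 of 3 in the other two.

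**Figure D2:**
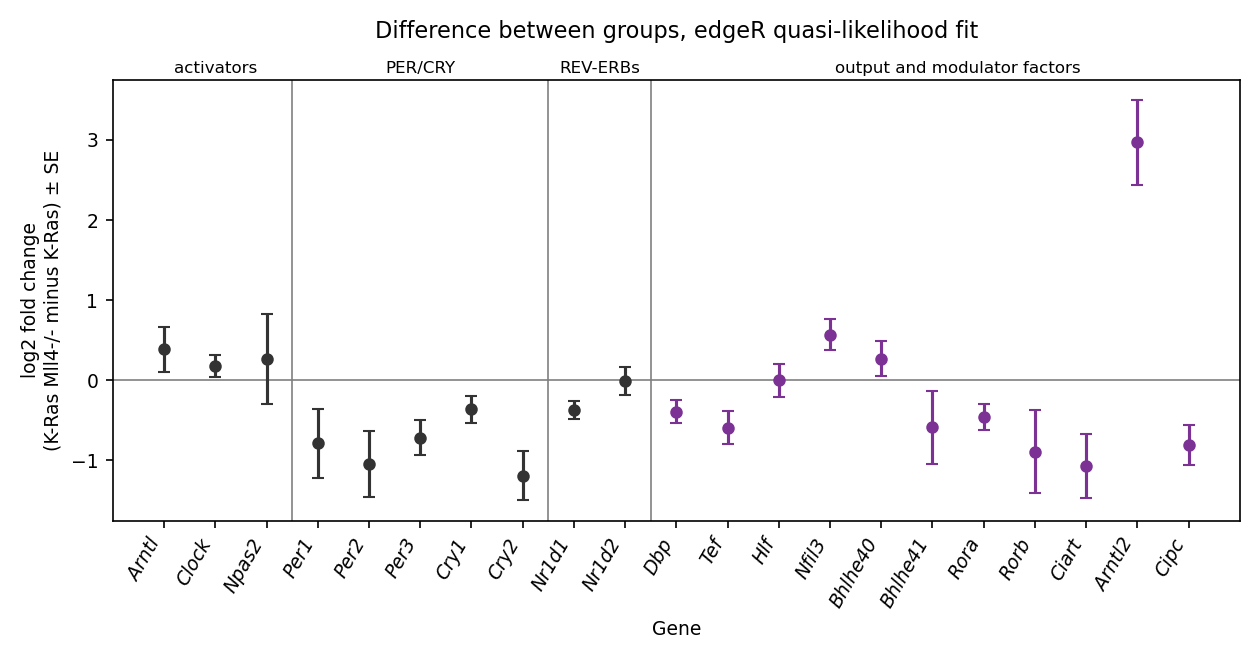
Log2 fold change, K-Ras Mll4-/- minus K-Ras, with its standard error from the edgeR quasi-likelihood fit, for the 10 clock genes (black) and 11 output and modulator factors of the clock (purple). The 5 PER and CRY values lie below 0, from -1.19 to -0.36, the 3 activators lie between 0.17 and 0.38, and Arntl2 lies far above the rest at 2.97.

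No sampling hour is given in the labels, and the samples form no time series from which a phase could be placed. The phase-like pattern of each sample was therefore described as the deviation of each gene's log2 CPM from its own mean over the 4 samples. In K-Ras replicate 2 the PER and CRY genes averaged 0.73 above their means and Arntl was 0.58 below. That sample had the highest Per1, Per2, Per3, Cry2 and Nr1d2 and the lowest Arntl and Clock. Nr1d1 was level between the K-Ras samples, at 0.18 in replicate 1 and 0.19 in replicate 2. K-Ras replicate 1 was close to the mean for the PER and CRY genes, at 0.04. Its activator average was slightly below the mean, at -0.16, through Npas2 at -0.61, while Arntl was at 0.15 and Clock at -0.02. The activator average of K-Ras replicate 2 was similar, at -0.12, with Npas2 at 0.37 against the low Arntl. In the K-Ras Mll4-/- samples the PER and CRY genes averaged -0.34 and -0.44 and Arntl was at 0.30 and 0.13. The deviations of a gene sum to 0, so a high value in 1 sample lowers the others. Their activator averages were 0.33 and -0.05, and the gap came mostly from Npas2, at 0.69 and -0.45, as did the order of these samples in the limb average.

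The activator average minus the average of the 7 repressors put the samples in 1 order. It was 0.61 and 0.28 in the K-Ras Mll4-/- samples, -0.19 in K-Ras replicate 1 and -0.70 in K-Ras replicate 2. Arntl relative to single repressors gave the same order for Per2, at 0.88 and 0.49 against 0.26 and -1.63, and for Nr1d1, at 0.53 and 0.27 against -0.03 and -0.76. Relative to Cry1 the groups were also apart, but the K-Ras Mll4-/- samples were nearly level, at 0.38 and 0.41 against -0.10 and -0.69. Relative to Dbp, a D-box factor driven by the activators, Arntl was at 0.59 and 0.23 against 0.03 and -0.84. In these 4 ratios and in the limb average the groups did not overlap. Arntl is part of each, so they are not separate observations. Of all single genes tested, 28.5% were below and 29.9% above without overlap. The distance between the K-Ras replicates was 0.51 in the limb average, 1.89 for Arntl relative to Per2 and 0.87 for Arntl relative to Dbp, against differences between the group means of 0.88, 1.36 and 0.82. For Per2 and Dbp the spread within K-Ras thus exceeded the difference between groups. Ratios within the repressors overlapped between groups for Nr1d1 relative to Per2, at 0.35 and 0.22 against 0.30 and -0.86, and for Per1 relative to Per2. The groups did not overlap for Cry2 relative to Cry1, at -0.45 and -0.31 in K-Ras Mll4-/- against -0.11 and 0.87 in K-Ras samples. Nor did they for Nr1d1 relative to Nr1d2, at -0.20 and -0.17 against 0.37 and -0.005. In these ratios the K-Ras replicates were 0.98 and 0.38 apart, against differences between the group means of -0.76 and -0.37. The sampling hour was not tested as a source of these patterns.

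**Figure D3:**
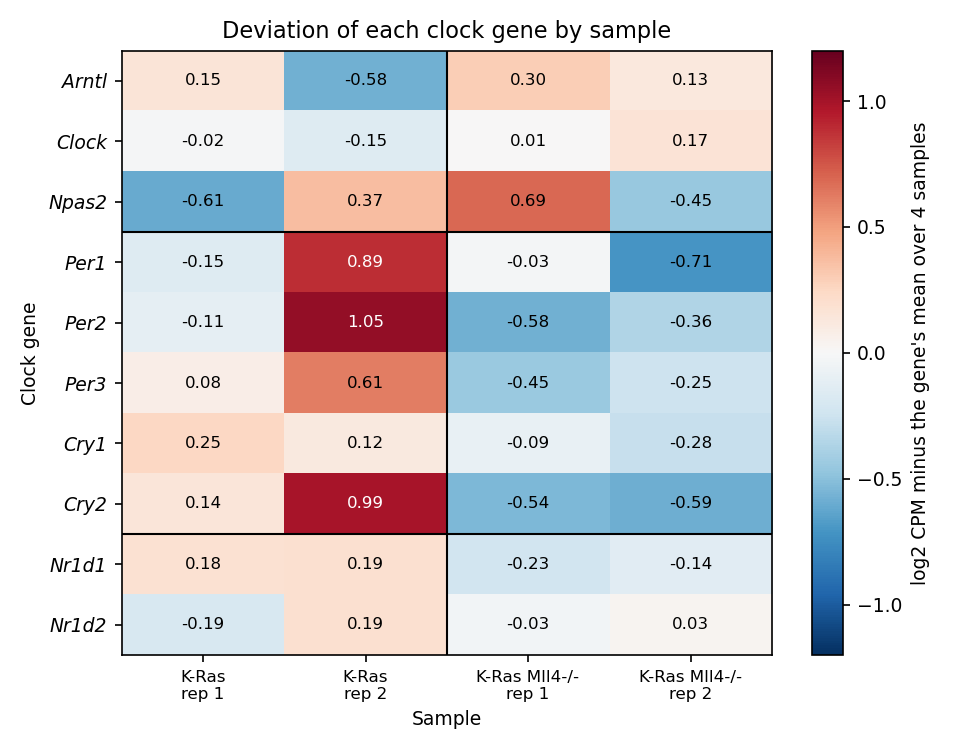
Deviation of log2 CPM from each gene's mean over the 4 samples, by gene (rows) and sample (columns), with red above and blue below the mean. K-Ras replicate 2 has the largest positive values, 1.05 for Per2 and 0.99 for Cry2, beside the lowest Arntl value, -0.58, and both K-Ras Mll4-/- samples are below the mean for all 5 PER and CRY genes.

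The K-Ras replicates lay far apart for most members. The median distance between the 2 K-Ras samples was 0.63 on the log2 scale over the 10 members and 0.29 over all tested genes. It exceeded 0.5 for 6 of 10 members and for 31.2% of all tested genes. The largest distances were those of Per2, at 1.16, and Per1, at 1.04, and the smallest was that of Nr1d1, at 0.005. Between the K-Ras Mll4-/- samples the median distance was 0.18 over the members and 0.20 over all tested genes, with Npas2 (1.14) and Per1 (0.69) the widest.

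How far each member depended on 1 sample followed from this. Without K-Ras replicate 2 the PER and CRY median shrank from -0.79 to -0.44, Per1 to -0.19, Per2 to -0.37 and Cry2 to -0.72, and Arntl moved to 0.05. Per3 then stood at -0.44. Cry1 and Nr1d1 were as large without that sample, at -0.44 and -0.38. Leaving out K-Ras replicate 1 instead moved the PER and CRY median to -1.21, Per2 to -1.51 and Cry2 to -1.55. In that fit K-Ras was a single sample, assumed to vary like the other group, so only effect sizes are given. With all 4 samples the adjusted p of Per2 ran from 0.0801 (DESeq2) to 0.288 (limma-voom). That of Cry2 ran from 0.00998 (DESeq2) to 0.193 (limma-voom). DESeq2 and the edgeR likelihood ratio test with all 4 samples called Cry2 alone among the members (adjusted p = 0.00998 and 0.0147), in lists that held 10.0% and 9.39% of the 16001 genes.

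**Figure D4:**
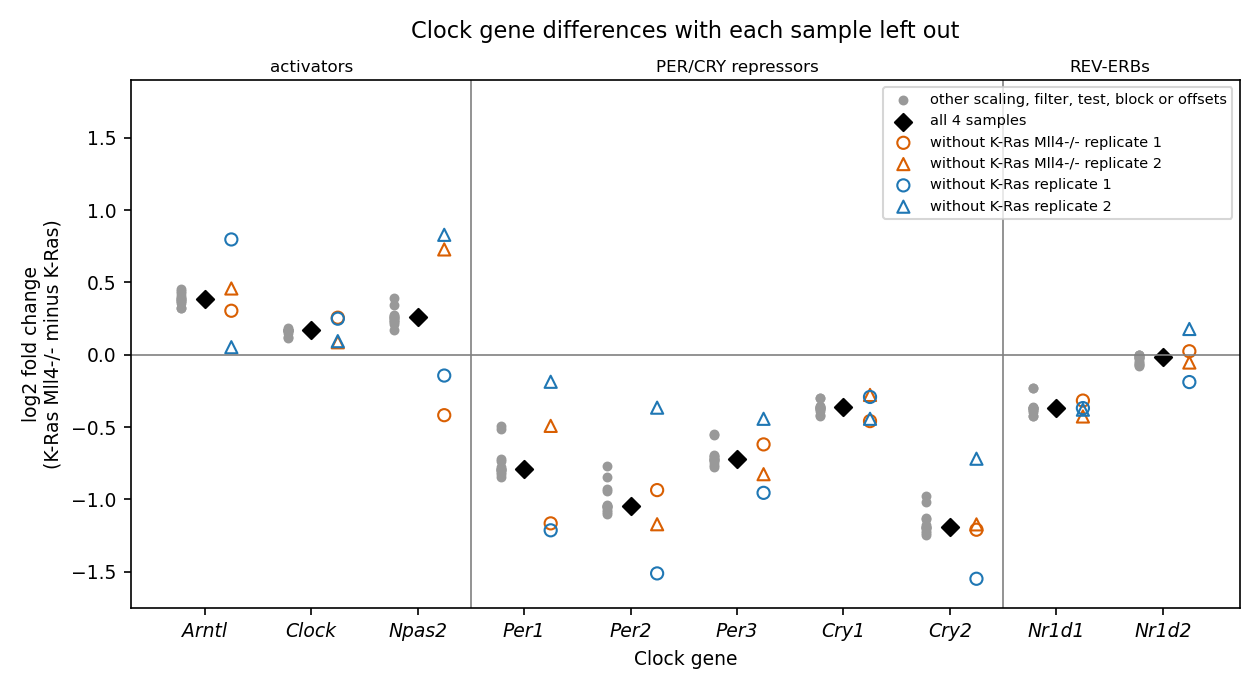
Log2 fold change of each clock gene with all 4 samples (black diamonds), under other scalings, filters, tests, the replicate block and GC and length offsets (grey), and with 1 sample left out (open symbols, blue for a K-Ras and orange for a K-Ras Mll4-/- sample). Per1, Per2 and Cry2 move towards 0, to -0.19, -0.37 and -0.72, without K-Ras replicate 2, whereas Nr1d1 stays between -0.43 and -0.32 whichever sample is left out.

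Levels of different genes were compared per kilobase of the longest annotated transcript. On that scale Nr1d2, Per1 and Nr1d1 led in all 4 samples except K-Ras Mll4-/- replicate 2, where Clock took the place of Per1. Nr1d2 was at 29.2 to 38.1 CPM per kilobase, Nr1d1 at 26.0 to 34.8 and Per1 at 17.3 to 52.5, and their ranges overlapped. Clock, Per2, Per3 and Cry2 formed the middle, with values from 6.81 for Cry2 to 24.8 for Per2. Cry1, at 4.96 to 7.17, and Arntl, at 3.81 to 6.99, came lower in every sample and overlapped each other. Npas2 was last in every sample, at 0.62 to 1.54. Arntl stood above Cry1 in both K-Ras Mll4-/- samples and below it in both K-Ras samples.

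Other clock genes were read from 3 lists. Of 11 output and modulator factors, 0 were called, 6 were below in both K-Ras Mll4-/- samples and 2 were above. Among all tested genes the shares below and above were 28.5% and 29.9%. Dbp was at 26.2 and 29.9 CPM against 34.9 and 38.6 CPM, and Tef, a related D-box activator, at 103 and 104 CPM against 129 and 183 CPM. Ciart, a repressor of the activator complex, was at 9.98 and 9.03 CPM against 12.8 and 27.0 CPM. Its log2 fold change was -1.07 (SE 0.40, adjusted p = 0.229), and K-Ras replicate 2 was again the highest sample. Nfil3, the D-box repressor, lay the other way, at 37.6 and 28.3 CPM against 23.0 and 21.4 CPM. Hlf, the remaining D-box activator, overlapped between groups, at 9.48 and 10.2 CPM against 10.6 and 9.10 CPM. Of the ROR receptors, which activate Arntl, Rora was below in both K-Ras Mll4-/- samples, at 83.7 and 66.7 CPM against 107 and 99.6 CPM, and so was Rorb. Rorb was scarce, at 0.93 to 2.55 CPM.

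The largest difference in that list was in Arntl2, a paralog of Arntl that can also pair with CLOCK. It was at 12.7 and 33.0 CPM in K-Ras Mll4-/- samples and at 2.71 and 3.13 CPM in K-Ras samples. The groups were far apart, though the K-Ras Mll4-/- samples differed from each other by more than their lower value. Its log2 fold change was 2.97 (SE 0.53, unadjusted p = 0.00356, adjusted p = 0.147). DESeq2, the likelihood ratio test and the fit with the replicate block and offsets each called it, and the quasi-likelihood fits without the block or with the block alone did not.

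Kinases, phosphatases and ubiquitin enzymes that act on clock proteins differed little, with a median log2 fold change of 0.06 over 12 genes and 0 called. Csnk1d and Csnk1e, the kinases that mark PER proteins for degradation, had log2 fold changes of 0.07 and -0.04. Ppp1ca, a phosphatase catalytic subunit, had 0.36, and Fbxl21, a ubiquitin ligase subunit at 0.84 to 1.77 CPM, had -0.51. Usp2, a deubiquitinase with rhythmic expression, was the exception in size, at 3.39 and 2.64 CPM against 5.82 and 12.2 CPM (log2 fold change -1.58, SE 0.45, adjusted p = 0.181). Of 14 genes known as rhythmic in several tissues, a list that also holds Usp2, 0 were called. In that list 4 were below and 2 above, beside 28.5% and 29.9% of all tested genes. Fmo2, a lung monooxygenase, was at 144 and 133 CPM against 278 and 346 CPM (log2 fold change -1.17, SE 0.17, adjusted p = 0.135). Pdk4, a kinase that restrains pyruvate oxidation, overlapped between groups at a log2 fold change of 0.65 (SE 0.55). Over the 36 genes of the 3 lists the median log2 fold change was -0.02. Lists of rhythmic genes hold members of every phase, so their medians carry no direction of the clock.

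Several other gene lists had their highest sum in K-Ras replicate 2, and their part in the clock values was not tested. Their counts of genes below stand beside 28.5% of all tested genes. All 8 ciliated cell markers were below in both K-Ras Mll4-/- samples, and their summed expression was 80.8 and 84.0 CPM there against 143 CPM in K-Ras replicate 1 and 799 CPM in K-Ras replicate 2, the sample with the highest Per1, Per2, Per3 and Cry2. The 5 club cell markers summed to 1015 and 786 CPM against 1171 and 4763 CPM, with 2 of 5 below. Immediate early and dissociation-induced genes, a class to which Per1 also belongs, were below in both K-Ras Mll4-/- samples for 10 of 14, with a median log2 fold change of -0.80 and 0 called. They summed to 1995 and 1694 CPM against 2511 and 3748 CPM. The 8 glucocorticoid-induced genes, of which Dusp1 is also in the immediate early list, with 1 below, summed to 1590 and 1191 CPM against 1362 and 2607 CPM, again highest in K-Ras replicate 2. The order of the samples in that sum matched that of Per1, but not that of Per2, Per3, Cry1 or Cry2. The immediate early sum had another order than Per1, and these likenesses were not tested.

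No gene of the remaining marker lists was called. Their counts below and above stand beside 28.5% and 29.9% of all tested genes. The 8 endothelial markers summed to 4366 and 3439 CPM in K-Ras Mll4-/- and 6960 and 6692 CPM in K-Ras samples, with 6 of 8 below. The 7 fibroblast markers summed to 916 and 920 CPM against 2613 and 1192 CPM, with 5 of 7 below and K-Ras replicate 1 the highest. Proliferation genes were above in both K-Ras Mll4-/- samples for 11 of 11, at summed values of 419 and 445 CPM against 248 and 236 CPM. Mesothelial markers were above for 2 and below for 1 of the 4 tested, at summed values of 494 and 833 CPM against 99.8 and 208 CPM. Most of these sums came from Krt19, at 370 and 609 CPM against 78.4 and 187 CPM, and Msln, at 120 and 221 CPM against 13.8 and 17.0 CPM. Upk1b was below, Lrrn4 overlapped, and Wt1 and Upk3b did not pass the count filter, so the list had no common direction. Leukocyte markers were below for 1 of 8, at 4854 and 3139 CPM against 4832 and 4479 CPM. Lyz2 made up most of each sum, at 4303 and 2822 CPM against 4173 and 4211 CPM, so the sum mainly reports that gene. The alveolar type 1 markers were above for 2 and below for 2 of 6, at 1264 and 1172 CPM against 1090 and 1459 CPM. No marker of any list was at 0 reads in all samples. In bulk tissue, fewer cells of a type and less RNA per cell cannot be told apart.

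**Figure D5:**
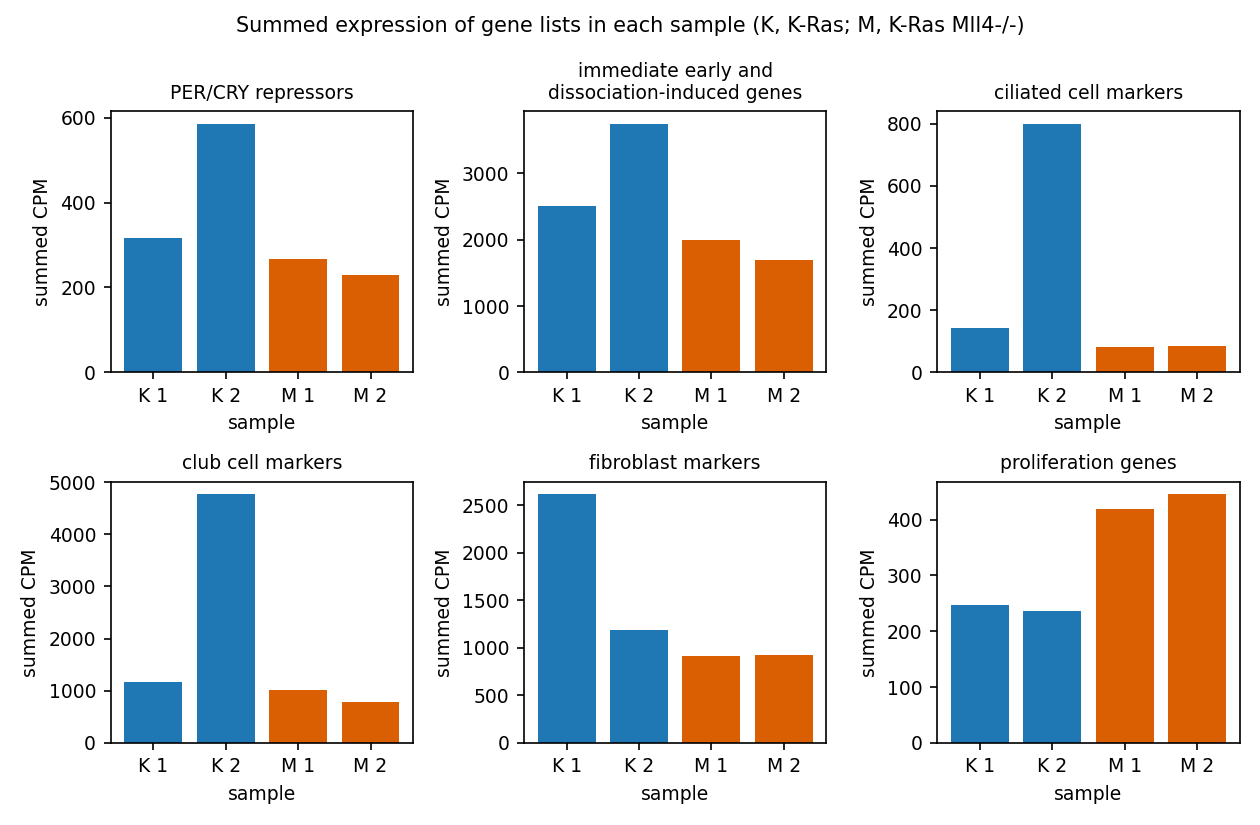
Summed TMM-normalised CPM of 6 gene lists in each sample (K, K-Ras; M, K-Ras Mll4-/-; numbers are replicates), with bars starting at 0. PER/CRY, immediate early, ciliated and club cell sums are all highest in K-Ras replicate 2 (585.5, 3748, 799 and 4763 CPM), the fibroblast sum is highest in K-Ras replicate 1 (2613 CPM), and the proliferation sum is higher in both K-Ras Mll4-/- samples.

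The genes most like Per2 and Arntl were ranked by the root mean square difference between log2 CPM deviations over the 4 samples, among 11905 other genes with a mean of at least 5 CPM. Closest to Per2 were Rph3al (0.05), Zc2hc1c (0.05), Ttll3 (0.07), Adamtsl4 (0.07) and Fam167a (0.08). Cry2 was the nearest member, at 0.18 and rank 56, and 75 genes lay within 0.2. Closest to Arntl were Ipp (0.02), Lsm5 (0.03), Metrnl (0.03), Commd10 (0.03) and Sgpl1 (0.03). For Arntl, 777 genes lay within 0.2, and its nearest member, Clock, was at 0.27 and rank 2081. With 4 points per gene these rankings describe the libraries and nothing more.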

How the data were processed

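RNA sequencing counts of 4 lung tumour samples were used, grouped and numbered by the sample titles. Each deposited file gives unnormalised read counts by gene symbol. Per the submitters' processing notes, CASAVA 1.4, STAR and HTSeq were used with the build mm9, and the annotation and strand setting are not given in the sources used here. Reads tallied outside genes, as ambiguous, of low quality, unaligned or not uniquely aligned made up 60.1% to 65.6% of all lines and were left out. A level of 3 reads corresponds to 0.0818 to 0.112 CPM, which covers counting error only.

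K-Ras Mll4-/- was compared with K-Ras over all genes in edgeR 4.0.16 (R 4.3.3), with filterByExpr, TMM (trimmed mean of M values) scaling and the robust quasi-likelihood test, and with Benjamini-Hochberg adjustment over the 16001 tested genes. A gene was called at an adjusted p under 0.05. CPM values are TMM-normalised, and log2 CPM used a prior count of 2. The SE is the log2 fold change divided by the square root of F, and 95% intervals use the degrees of freedom of that test. Alternatives used DESeq2 1.42.0, limma 3.58.1 and smooth offsets from mgcv 1.9.3 for GC content and length of the longest GENCODE M21 transcript, known for 15869 tested genes. Fits were run on simulated counts with large changes and a single low spread for all genes, and had to give nearly all changes the right sign. The spread and effect sizes of these data were not simulated.

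The members and lists were chosen with earlier results of these data known. The genes named are all 10 members and, in the other clock lists, those with the largest log2 fold changes, together with factors named for their role after their values were seen. In marker and context lists, counts and sums are given instead, except that mesothelial markers and Lyz2 are also named. Exon overlaps come from GENCODE M21 (GRCm38), and promoters, matched by symbol for 9 of the 10 members, from RefSeq (GRCm38.p6). Some genes of the other clock lists are not reported here.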

Additional observations from a re-analysis of the deposited data

How the results depend on the processing

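Against 6 genes called in all, no count filter gave 44 (42 higher, 2 lower), a threshold of 0.1 gave 22, limma-voom 0 (3228 at an unadjusted p under 0.05), DESeq2 1601 and the likelihood ratio test 1503. Leaving out single samples gave from 0 to 528, the latter without K-Ras replicate 1. Clock members called, 0 of 10 with 3 at an unadjusted p under 0.05, numbered 1 (Cry2) by DESeq2 and 1 (Cry2) by the likelihood ratio test, and from 0 to 2 (Per2 and Cry2) with a sample left out. Other clock-pathway genes called, 0 of 36, numbered 3 (Arntl2, Usp2 and Fmo2) by DESeq2, 3 by the likelihood ratio test (the same genes), and from 0 to 2 (Ciart and Fmo2, without K-Ras replicate 1) with a sample left out. The PER/CRY median of -0.79 ranged from -1.21 to -0.44 over the samples left out and was -0.56 with the GC and length offsets. Over the samples left out, Npas2 ranged from -0.42 to 0.83 and Nr1d2 from -0.19 to 0.18. By limma-voom Nr1d2 was at 0.0014. The cause of these shifts was not tested. Over the other scalings, filters and tests, no other member changed sign.

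Same-numbered samples deviated from their group means with a correlation of 0.213 over genes. The labels do not say what a number shares, so the samples were not taken as pairs. The replicate block called 217 genes (199 higher, 18 lower) and 0 of the 10 members. Together with offsets for GC content and length, the replicate block called 376 (318 higher, 58 lower), of which 0 were members and 2 (Arntl2 and Fmo2) other clock-pathway genes.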
